A study of Mus musculus with 12 samples.

Results

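Elastic fibre and microfibril genes were read from the bulk RNA sequencing counts of mouse paraspinal tissue, taken at day 7 after spine surgery. The group held 10 of the 18996 genes of the table, chosen by symbol: elastin (*Eln*), the fibrillins *Fbn1* and *Fbn2*, the fibulins *Fbln1*, *Fbln2* and *Fbln5*, the emilin *Emilin1*, and the microfibril-associated genes *Mfap2*, *Mfap4* and *Mfap5*. All 10 passed the filter on low counts. The 12 mice were of the BALB/c strain, aged 5 to 7 weeks by the study's methods, with no transgene or drug named for these samples. The 4 No operation mice gave soft tissue from beside the spine. The 4 SHAM mice had paraspinal soft tissue removed with the lamina left in place, and the 4 Laminectomy mice had the lamina and spinous processes from T12 to L2 removed as well. The labels call the samples of both surgical groups scar tissue, and those of the No operation mice paraspinal soft tissue. The study based its own tests on 3 mice per group without naming them, so all 4 were used here.

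Elastic fibres are built from a core of cross-linked elastin laid on a scaffold of microfibrils, whose backbone is fibrillin. Fibrillin 1 is the main fibrillin of adult connective tissue, and fibrillin 2 is best known from development and from repair. Fibulins, emilins and the microfibril-associated proteins bind to elastin, to fibrillin or to both, and lysyl oxidases cross-link the elastin. Fibroblasts and vascular smooth muscle cells are the usual makers, and the fibres give soft tissue its recoil.

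A pair of short windows shows the sequence upstream of a pair of fibulin genes that went apart in these data, *Fbln1*, which fell in Laminectomy mice, and *Fbln5*, which was not called. Each window holds the 250 bases before the RefSeq start (GRCm38.p6), read 5′ to 3′ on the strand of the gene. Such windows were found for 6 of the 10 genes, and only these 2 hold no exon of the GENCODE annotation. Capitals mark CAGAC, the core of the box bound by SMAD proteins, or GGGCGG, the GC box, on either strand.
Fbln1 (chr15:85205699-85205948, plus strand): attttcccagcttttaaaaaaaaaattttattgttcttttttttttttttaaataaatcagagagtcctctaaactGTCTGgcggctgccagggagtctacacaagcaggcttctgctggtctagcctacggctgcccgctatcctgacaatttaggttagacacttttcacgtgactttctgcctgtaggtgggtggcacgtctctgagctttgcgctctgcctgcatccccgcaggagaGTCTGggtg
Fbln5 (chr12:101819120-101819369, minus strand): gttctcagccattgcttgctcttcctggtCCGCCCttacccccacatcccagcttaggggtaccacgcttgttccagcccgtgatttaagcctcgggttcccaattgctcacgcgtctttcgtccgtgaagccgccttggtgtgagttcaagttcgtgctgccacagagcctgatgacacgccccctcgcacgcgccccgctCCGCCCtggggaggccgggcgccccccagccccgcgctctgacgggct

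The *Fbln1* window held CAGAC and no GGGCGG, and the *Fbln5* window the reverse. Of the 27025 windows of this length in the RefSeq table, 42.1% held CAGAC and 32.9% held GGGCGG, so neither match sets a gene apart. Among the 6 genes with a window, CAGAC occurred in *Fbln1* and *Emilin1* and GGGCGG in *Fbn1*, *Fbln2*, *Fbln5* and *Mfap2*. The AP-1 site, searched as TGANTCA on both strands, was found in none of the 6 and in 6.87% of all windows. None held the TATAAA box either, which 13% of all windows held, nor a CArG box (1.4%). GC content was 46.4% for *Fbln1* and 65.2% for *Fbln5*, with a median of 52% over all windows.

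Total counts per mouse ran from 16802988 to 18077863. Levels below are in CPM, counts relative to the effective library size that the TMM method sets. Markers of skeletal muscle separated the unoperated from the operated tissue. Summed over 8 muscle markers, the level was 79594 to 112323 CPM without operation, 1985 to 8295 CPM after SHAM surgery and 2749.6 to 11575 CPM after laminectomy. All 8 were lower in both surgical groups by edgeR. The 10 fibroblast markers summed to between 6748 and 20158 CPM in No operation mice, with replicate 1 the highest, to between 40805 and 58106 CPM in SHAM mice and to between 36821 and 42728 CPM in Laminectomy mice. Of these 10, 6 were higher and 1 lower in SHAM mice, and 5 were higher and 2 lower in Laminectomy mice. In bulk tissue, a change in the number of cells of a type and a change in RNA per cell cannot be told apart, and the part of either marker list in the results below was not tested.

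Against No operation mice, 8 of the 10 genes were higher in SHAM mice and none was lower, while 4 were higher and 1 was lower in Laminectomy mice. *Fbn2*, *Mfap2* and *Emilin1* rose in both surgical groups with no overlap between mice, by 9.80-fold, 5.83-fold and 3.93-fold in SHAM mice and by 13.8-fold, 4.02-fold and 4.67-fold in Laminectomy mice. *Mfap4* rose in both groups as well, and *Eln*, *Fbn1*, *Fbln2* and *Mfap5* were called in SHAM mice. *Fbln1* was the member called lower, in Laminectomy mice, and *Fbln5* was not called in any comparison. Calls come from edgeR's quasi-likelihood test over 14765 genes and needed a log2 fold change beyond 0.5 in size, with p adjusted by Benjamini-Hochberg under 0.05.

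Much of the transcriptome differed after surgery, so these counts were read against all genes tested. Calls of a higher level made up 25.7% of all genes in SHAM mice and 24.2% in Laminectomy mice, and calls of a lower level 25.1% and 24.4%. Genes called in either direction made up 50.8% and 48.6%. The median log2 fold change of the 10 genes was 1.40 in SHAM mice, beside -0.00 over all genes, and 0.66 in Laminectomy mice, beside 0.01. The mice of the compared groups did not overlap for 4 of the 10 genes in either comparison, while 54.5% and 56.0% of all genes showed no overlap. An unadjusted p under 0.05 was found for 8 of the 10 in SHAM and 6 in Laminectomy mice, beside 65.7% and 64.0% of all genes. Scaling by library totals alone moved the median of all genes up by 0.26 on the log2 scale in SHAM mice and by 0.32 in Laminectomy mice. With that scaling, higher calls were 66.0% of all calls in SHAM mice in place of 50.6%, and 69.9% in Laminectomy mice in place of 49.8%, and 9 and 7 of the 10 genes were called.

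**Figure D1:**
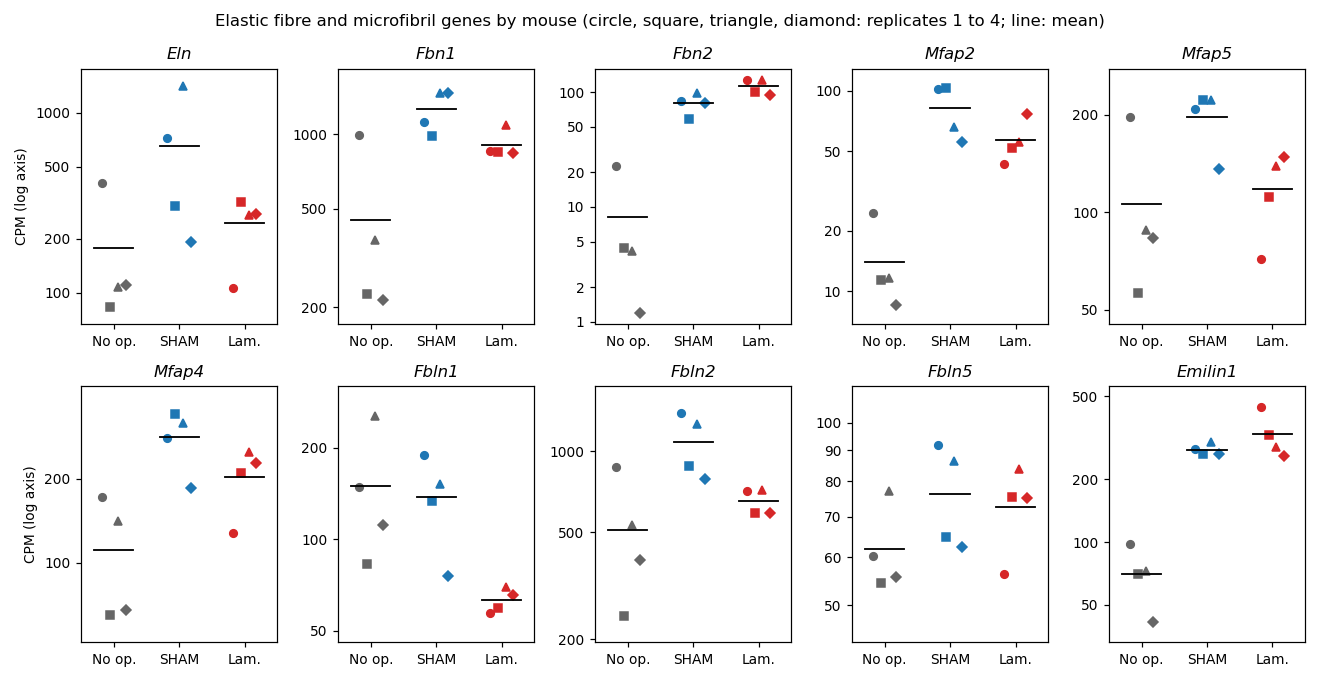
CPM of each gene in each mouse on a log axis, with 1 panel per gene, 4 mice per group (No op., No operation; Lam., Laminectomy) and a line at the mean of each group. *Fbn2*, *Mfap2* and *Emilin1* show no overlap between No operation mice and either surgical group, and *Fbln1* in Laminectomy mice lies between 57.2 and 69.5 CPM, under every mouse of the other groups.

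**Figure D2:**
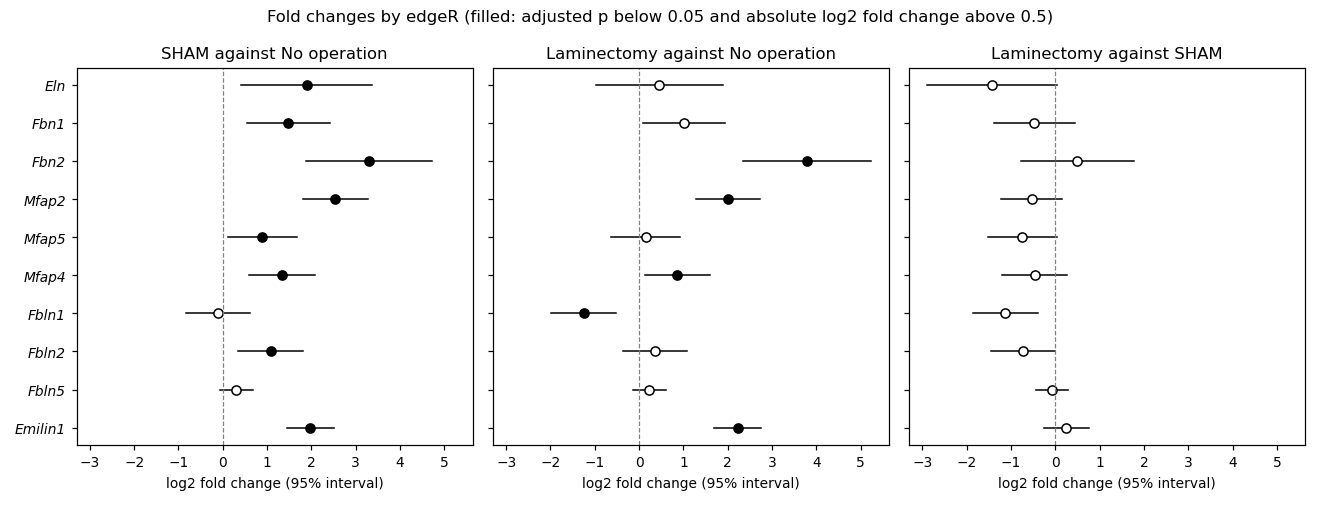
Log2 fold change of each gene in the 3 comparisons, with 95% intervals from edgeR over 12 mice, and filled points where the gene was called. In SHAM against No operation mice 8 points are filled, in Laminectomy against No operation mice 5, and in Laminectomy against SHAM mice none.

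*Eln* encodes tropoelastin, the soluble precursor of the elastic core (identifier 13717, GRCm38 chromosome 5, 134702593 to 134747323). No operation mice 1 to 4 held 407, 83.8, 108 and 110.1 CPM (mean 177 ± 154, SD, n = 4). After SHAM surgery the mice held 727, 305, 1407 and 191 CPM (658 ± 550.1), and after laminectomy 106, 321, 272 and 275 CPM (244 ± 94.3). SHAM 3 held the highest level and SHAM 4 was below No operation 1, so the groups overlapped. In SHAM mice the log2 fold change was 1.89 (SE 0.678, adjusted p = 0.0297 by edgeR), and the two-sided exact permutation test over mice gave p = 0.0857. The call was lost when any of 5 mice was left out. Without SHAM 3 the log2 fold change was 1.2 (adjusted p = 0.120 by edgeR), and without SHAM 1 it was 1.86 (adjusted p = 0.0512). Without No operation 2, 3 or 4 it was 1.66, 1.71 or 1.73 (adjusted p = 0.0720, 0.0776 and 0.0748). Without No operation 1 it rose to 2.71 (adjusted p = 0.00463). The call was also lost with a replicate block (1.79, adjusted p = 0.0568 by edgeR) and with only the 2 groups compared (1.90, adjusted p = 0.0518). In Laminectomy mice the log2 fold change was 0.46 (SE 0.657, adjusted p = 0.570, edgeR). Exons of an antisense gene, Gm30003, cover 267 bases of *Eln* exons, and whether counting used strand is not stated beyond default settings.

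Smooth muscle, a further source of elastin, was followed through 7 markers beside *Eln*. Their sum was 397 to 656 CPM without operation, 526 to 969 CPM after SHAM surgery and 696 to 1011 CPM after laminectomy. SHAM 3, the mouse with the most *Eln*, had the highest sum of the SHAM group, and its 5 adipocyte markers stood at 1477 CPM, while the other SHAM mice lay between 37.8 and 225 CPM. Their part in the *Eln* level was not tested. Among the 7, 1 was higher (*Acta2*) and 3 were lower (*Lmod1*, *Mylk* and *Myh11*) in SHAM mice. In Laminectomy mice 2 were higher (*Acta2* and *Cnn1*) and the same 3 lower. On average *Acta2* rose from 133 CPM to 335 and 436 CPM, and *Myh11* fell from 101 to 41.1 and 29.1 CPM.

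The fibrillin backbone of the microfibril moved unevenly. *Fbn1* lies on chromosome 2, 125300594 to 125507993 (identifier 14118). No operation mice 1 to 4 held 994, 227, 375 and 214 CPM (452 ± 368, SD, n = 4), where replicate 1 stood far above the other mice. The SHAM mice held 1119, 979, 1463 and 1472 CPM (1258 ± 248) and the Laminectomy mice 857, 845, 1088 and 841 CPM (908 ± 120.2). Every operated mouse exceeded No operation 2, 3 and 4, and No operation 1 overlapped both surgical groups. It rose by 1.48 on the log2 scale in SHAM mice (SE 0.427, adjusted p = 0.0105 by edgeR). In Laminectomy mice the log2 fold change was 1.01 (SE 0.423, adjusted p = 0.0581), which did not pass the test. Without No operation 1 the values were 2.21 in SHAM and 1.74 in Laminectomy mice, and both passed it (adjusted p = 4.13e-05 and 0.000189 by edgeR). The Laminectomy change also passed with DESeq2 (1.02, adjusted p = 0.0261), library totals as scaling (1.35, 0.0139), at least 10 counts in every mouse (1.02, 0.04999) and a replicate block (1.22, 0.0306). That mouse also had the highest fibroblast and macrophage marker sums of its group, at 20158 and 910.3 CPM. Gm9913, a gene on the opposite strand that is not listed in the table, covers 2442 bases of *Fbn1* exons.

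*Fbn2* (identifier 14119, chromosome 18, 58008623 to 58210487) rose from a low level by the widest fold of the 10 genes. No operation mice 1 to 4 held 22.9, 4.41, 4.13 and 1.19 CPM (8.17 ± 9.96), which were 17 to 333 counts. SHAM mice held 83.2, 58.8, 97.3 and 80.6 CPM (80.0 ± 15.9) and Laminectomy mice 128, 100.2, 128 and 93.6 CPM (113 ± 18.2). Each operated mouse was above every No operation mouse, and the surgical groups overlapped narrowly. The log2 fold change was 3.29 in SHAM mice (SE 0.649, adjusted p = 0.00105 by edgeR) and 3.79 in Laminectomy mice (SE 0.661, adjusted p = 0.000537). In both comparisons the exact permutation test gave p = 0.0286, the smallest value that 4 mice against 4 allow. Without No operation 1, whose level was the highest of its group, the log2 fold changes were 4.61 and 5.11. Exons of Gm26507, on the opposite strand and not listed in the table, cover 129 bases of *Fbn2* exons.

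The balance of the fibrillins differed between the groups in these mice, though no ratio test passed after adjustment. The ratio of *Fbn2* to *Fbn1* CPM was 0.0231, 0.0194, 0.0110 and 0.00558 in No operation mice. It was 0.0744, 0.0601, 0.0665 and 0.0548 in SHAM mice and 0.149, 0.119, 0.118 and 0.111 in Laminectomy mice. All 3 groups were separate from each other, with every Laminectomy mouse above every SHAM mouse. On the log2 scale (log2 CPM with a prior count of 2) the difference was 2.25 in SHAM and 3.21 in Laminectomy against No operation mice, and 0.96 between Laminectomy and SHAM mice. Each gave an exact permutation p of 0.0286, the smallest possible, and 0.0762 after Benjamini-Hochberg adjustment over 24 tests (8 ratios in 3 comparisons), so none passed the adjusted threshold. A ratio within a library does not depend on how libraries were scaled. Per kb of exon, *Fbn1* remained the more abundant fibrillin in all groups, at means of 37.3, 104 and 74.9 CPM per kb against 0.618, 6.05 and 8.52 for *Fbn2*.

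**Figure D3:**
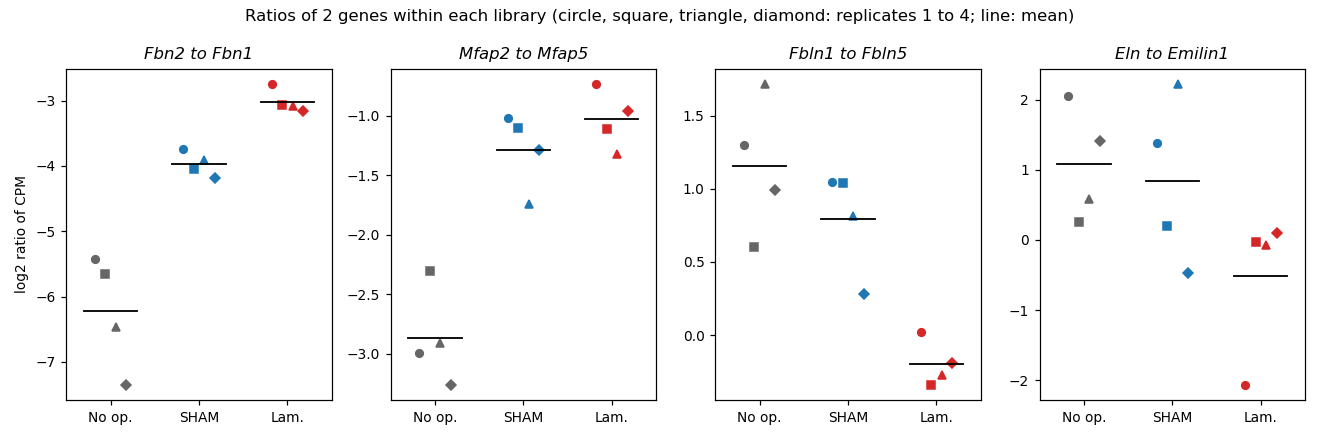
Log2 ratio of CPM of 4 pairs of genes in each mouse (4 mice per group, line at the group mean). For *Fbn2* to *Fbn1* the 3 groups do not overlap, at -7.35 to -5.43, -4.19 to -3.75 and -3.17 to -2.74, and for *Eln* to *Emilin1* Laminectomy 1 lies apart at -2.07.

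Microfibril-associated proteins bind along the fibrillin scaffold. *Mfap2*, whose product MAGP1 binds fibrillin and TGF-beta, is at chromosome 4, 141010418 to 141015984 (identifier 17150). Its CPM values were 24.7, 11.3, 11.7 and 8.55 without operation (14.1 ± 7.22, SD, n = 4), 103, 103, 66.2 and 55.6 after SHAM surgery (81.9 ± 24.6) and 43.0, 51.7, 55.3 and 76.2 after laminectomy (56.5 ± 14.1). No operated mouse overlapped the No operation group, and the surgical groups overlapped each other. The log2 fold change was 2.54 in SHAM mice (SE 0.340, adjusted p = 7.4e-05 by edgeR) and 2.01 in Laminectomy mice (SE 0.334, adjusted p = 0.00039).

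*Mfap5* encodes MAGP2, the relative of MAGP1 (identifier 50530, chromosome 6, 122505845 to 122529290). The No operation mice held 197, 56.4, 88.3 and 83.1 CPM (106 ± 62.2), the SHAM mice 208, 222, 222 and 136 CPM (197 ± 41.1) and the Laminectomy mice 71.5, 112, 139 and 148 CPM (118 ± 34.4). No operation 1 reached the SHAM range, and every Laminectomy mouse lay within the No operation range. In SHAM mice the log2 fold change was 0.89 (SE 0.357, adjusted p = 0.0470 by edgeR), a call close to the threshold. Without No operation 2, 3 or 4 the log2 fold change was 0.68, 0.81 or 0.79 (adjusted p = 0.109, 0.110 and 0.109), and without SHAM 1, 2 or 3 it was 0.87, 0.83 or 0.83 (adjusted p = 0.0790, 0.0946 and 0.0917). The SHAM call was also lost with a replicate block (0.96, adjusted p = 0.0624 by edgeR) and with only the 2 groups compared (0.90, adjusted p = 0.0630). In Laminectomy mice the log2 fold change was 0.15 (SE 0.354, adjusted p = 0.741).

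The ratio of *Mfap2* to *Mfap5* CPM was 0.125, 0.201, 0.132 and 0.103 without operation, 0.494, 0.464, 0.299 and 0.408 after SHAM surgery, and 0.601, 0.462, 0.399 and 0.513 after laminectomy. Both surgical groups were above the No operation group with no overlap, by 1.58 and 1.83 on the log2 scale (exact permutation p = 0.0286, adjusted p = 0.0762 over 24 tests). The surgical groups differed by 0.26 (exact permutation p = 0.286).

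*Mfap4*, a fibrinogen-domain glycoprotein that binds elastin and microfibrils, is at chromosome 11, 61485431 to 61488900 (identifier 76293). The No operation mice held 171, 64.9, 141 and 67.9 CPM (111 ± 53.3), the SHAM mice 279, 342, 317 and 185 CPM (281 ± 68.7) and the Laminectomy mice 128, 209, 248 and 227 CPM (203 ± 52.8). SHAM mice were above every No operation mouse, and Laminectomy 1 fell within the No operation range. Against No operation mice it differed by 1.33 on the log2 scale in SHAM mice (SE 0.339, adjusted p = 0.00511 by edgeR) and by 0.87 in Laminectomy mice (SE 0.336, adjusted p = 0.0424). The Laminectomy call was lost without No operation 2 or 4, at 0.68 and 0.70 (adjusted p = 0.102 and 0.104 by edgeR), and without Laminectomy 2, 3 or 4, at 0.85, 0.76 and 0.81 (adjusted p = 0.0742, 0.101 and 0.0861). Exons of *Mapk7* on the opposite strand cover 89 bases of *Mfap4* exons. In *Mfap4* to *Mfap5*, the ratio changed by 0.40 in SHAM and 0.70 in Laminectomy mice on the log2 scale (exact permutation p = 0.171 and 0.0571).

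Fibulins link elastin to the microfibril and to cells, and the 3 genes measured here took different courses. *Fbln1*, whose product binds fibronectin and the basement membrane as well as elastin, is at chromosome 15, 85205949 to 85286535 (identifier 14114). Its CPM values were 149, 82.6, 255 and 111 without operation (149 ± 75.3, SD, n = 4), 189.7, 133, 152 and 75.6 after SHAM surgery (138 ± 47.5) and 57.2, 59.5, 69.5 and 65.6 after laminectomy (63.0 ± 5.60). The Laminectomy mice formed the tightest group and lay below all 8 other mice. Laminectomy mice stood at -1.25 on the log2 scale against No operation mice (SE 0.334, adjusted p = 0.00742 by edgeR). In SHAM mice it was -0.12 (SE 0.329, adjusted p = 0.775), and its sign turned with library totals as scaling (0.14) and without No operation 3 (0.27) or SHAM 4 (0.09).

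*Fbln2*, made mainly by fibroblasts and in vessel walls, is at chromosome 6, 91212455 to 91272540 (identifier 14115). The No operation mice held 879, 244, 531 and 394 CPM (512 ± 271), the SHAM mice 1396, 883, 1261 and 790.1 CPM (1083 ± 292) and the Laminectomy mice 711, 588, 721 and 592 CPM (653 ± 72.9). No operation 1 again stood high, within the SHAM range and above every Laminectomy mouse, so the No operation group overlapped both surgical groups. The log2 fold change was 1.08 in SHAM mice (SE 0.333, adjusted p = 0.0145 by edgeR) and 0.35 in Laminectomy mice (SE 0.329, adjusted p = 0.378). Without No operation 1 the Laminectomy value was 0.74 (adjusted p = 0.0381 by edgeR) and was called.

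*Fbln5*, which binds elastin and lysyl oxidases and is needed for elastic fibre assembly, is at chromosome 12, 101746565 to 101819055 (identifier 23876). Its CPM values were 60.3, 54.3, 77.2 and 55.7 without operation (61.9 ± 10.5), 91.7, 64.8, 86.5 and 62.3 after SHAM surgery (76.3 ± 15.0) and 56.4, 75.5, 83.8 and 75.1 after laminectomy (72.7 ± 11.6). All 3 groups overlapped. The fitted log2 change was 0.30 after SHAM surgery (95% interval -0.07 to 0.67, adjusted p = 0.138 by edgeR) and 0.23 after laminectomy (-0.14 to 0.60, adjusted p = 0.253), so a rise of more than 0.67 or a fall of more than 0.14 lay outside these intervals. With library totals as scaling the values were 0.55 and 0.56, and both were called.

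*Fbln1* and *Fbln5*, the pair whose upstream windows were printed, had their lowest ratios in Laminectomy mice, though no ratio test passed after adjustment. The ratio of *Fbln1* to *Fbln5* CPM was 2.47, 1.52, 3.30 and 1.99 in No operation mice, 2.07, 2.06, 1.76 and 1.21 in SHAM mice, and Laminectomy mice ran from 0.788 to 1.02. No Laminectomy mouse reached the lowest ratio of the other groups. The difference on the log2 scale was -1.35 against No operation and -0.99 against SHAM mice (exact permutation p = 0.0286 for each, adjusted p = 0.0762 over 24 tests). SHAM mice differed from No operation mice by -0.36 (exact permutation p = 0.314). The ratio of *Fbln2* to *Fbln5* was 14.6, 4.49, 6.88 and 7.06 without operation, 15.2, 13.6, 14.6 and 12.7 after SHAM surgery, and 12.6, 7.79, 8.60 and 7.88 after laminectomy. Every Laminectomy mouse was below every SHAM mouse, with Laminectomy 1 and SHAM 4 almost level. The mean difference was -0.63 (exact permutation p = 0.0286, adjusted p = 0.0762 over 24 tests). Against No operation mice both surgical groups overlapped, at 0.90 and 0.27 (exact permutation p = 0.0857 and 0.486).

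*Emilin1* encodes a glycoprotein at the border of elastin and microfibrils that restrains TGF-beta processing (identifier 100952, chromosome 5, 30913402 to 30921277). The No operation mice held 98.0, 70.0, 72.5 and 41.4 CPM (70.5 ± 23.1, SD, n = 4), the SHAM mice 279, 265, 300.4 and 264 CPM (277 ± 17.0) and the Laminectomy mice 446, 327, 286 and 258 CPM (329 ± 82.7). SHAM mice lay close together, and Laminectomy 1 was the highest of all 12. On the log2 scale it rose by 1.98 in SHAM mice (SE 0.241, adjusted p = 4.25e-05 by edgeR) and by 2.22 in Laminectomy mice (SE 0.243, adjusted p = 2.83e-05). These had the smallest adjusted p-values of the 10 genes in both comparisons.

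In Laminectomy 1, the highest *Emilin1* met the lowest *Eln* of its group. The ratio of *Eln* to *Emilin1* CPM was 0.238 in that mouse and 0.981, 0.953 and 1.07 in the other Laminectomy mice, while No operation mice had 4.15, 1.2, 1.5 and 2.66 and SHAM mice 2.6, 1.15, 4.68 and 0.725. The difference between Laminectomy and No operation mice was -1.59 on the log2 scale, without overlap (exact permutation p = 0.0286, adjusted p = 0.0762 over 24 tests). Laminectomy and SHAM mice differed by -1.35 (exact permutation p = 0.200). Ratios of *Eln* to *Fbn1* changed by 0.04 in SHAM and -0.64 in Laminectomy mice, and those of *Eln* to *Fbln5* by 1.5 and 0.43, each with overlapping groups.

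Levels per kb of exon were set side by side for the 10 genes, with all annotated exons of a gene joined as its length. The length of the transcripts in the tissue was not measured. The order of genes here and the shares below therefore depend on the annotation. In No operation mice, *Fbln2* was highest (80.4 CPM per kb on average), followed by *Mfap4* (57.9), *Fbn1* (37.3), *Fbln1* (34.2), *Mfap5* (29.6), *Eln* (21.9), *Emilin1* (14.3), *Mfap2* (11.6), *Fbln5* (8.96) and *Fbn2* (0.618). Neighbours in this order overlapped in their ranges over mice, apart from *Fbln5* and *Fbn2*. In SHAM mice the order was *Fbln2* (170.0), *Mfap4* (146), *Fbn1* (104), *Eln* (81.2), *Mfap2* (67.6), *Emilin1* (56.2), *Mfap5* (54.9), *Fbln1* (31.5), *Fbln5* (11.0) and *Fbn2* (6.05). In Laminectomy mice it was *Mfap4* (106), *Fbln2* (103), *Fbn1* (74.9), *Emilin1* (66.7), *Mfap2* (46.7), *Mfap5* (32.8), *Eln* (30.1), *Fbln1* (14.4), *Fbln5* (10.5) and *Fbn2* (8.52). In SHAM mice neighbours overlapped down to *Fbln1*, and *Fbln1*, *Fbln5* and *Fbn2* were separate. In Laminectomy mice *Fbln2* was separate from *Fbn1* and *Fbln1* from *Fbln5*, and the other neighbours overlapped. *Fbln1* moved from the fourth place to the eighth, and *Emilin1* from the seventh to the sixth and the fourth.

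As a share of the summed CPM per kb of the 10 genes, *Fbn2* took 0.172% on average in No operation, 0.85% in SHAM and 1.74% in Laminectomy mice. The share of *Emilin1* was 5.30%, 7.93% and 13.8%, and that of *Mfap2* 4.05%, 9.43% and 9.44%. *Fbln1* took 12.3%, 4.25% and 2.93%, and *Fbln5* 3.49%, 1.53% and 2.13%. The shares of *Mfap4*, at 19.7%, 20.2% and 21.2%, stayed near each other. *Eln* took 10.1% in No operation 1, 19.5% in SHAM 3 and 2.99% in Laminectomy 1, the highest shares of the No operation and SHAM groups and the lowest of the Laminectomy group. These shares are descriptions, since a rise of 1 gene lowers the share of the rest.

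**Figure D4:**
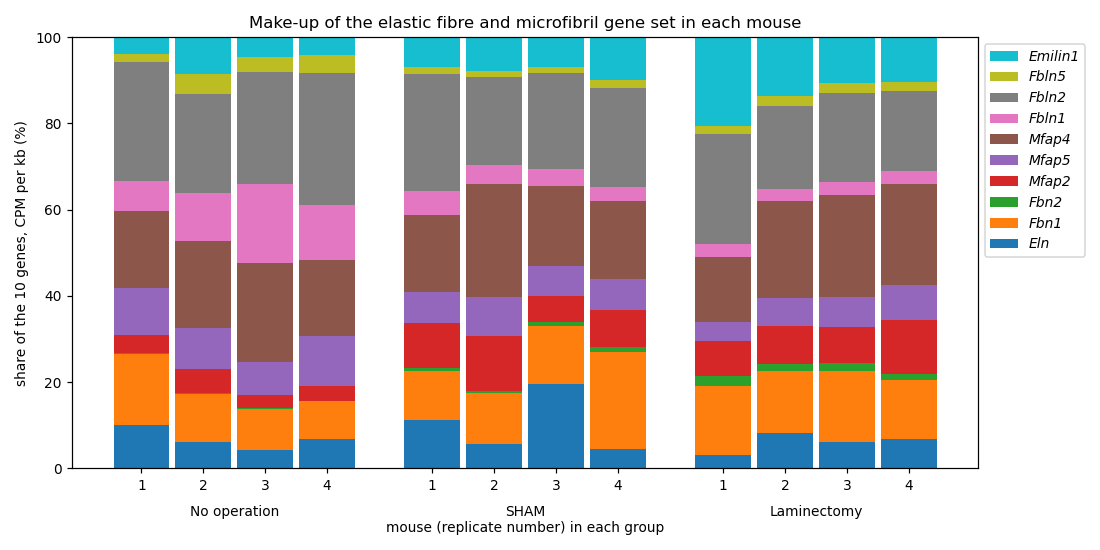
Share of each gene in the summed CPM per kb of the 10 genes, as stacked bars that add to 100% for each of the 12 mice. The band of *Fbln1* covers 6.83% to 18.2% in No operation mice and 2.82% to 2.99% in Laminectomy mice, and the band of *Emilin1* reaches 20.6% in Laminectomy 1.

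Between Laminectomy and SHAM mice, which asks what removal of the lamina adds to surgery on soft tissue, none of the 10 genes was called by edgeR. None of the 14765 genes was called (0.00%), while 2359 (16.0%) had an unadjusted p under 0.05, among them 2 of the 10, *Fbln1* and *Fbln2*. DESeq2, run with its own filter on low counts in place of that used for edgeR, called 1 of the 10, *Fbln1*, and 687 of the 18598 genes it fitted. *Fbln1* was lower in Laminectomy mice with no overlap, by a log2 fold change of -1.13 (95% interval -1.86 to -0.40, unadjusted p = 0.00569, adjusted p = 0.152 by edgeR). DESeq2 gave -1.12 (adjusted p = 0.0287). *Fbln2* was lower without overlap too, at -0.73 (-1.45 to -0.01, adjusted p = 0.311 by edgeR). The groups did not overlap for these 2 of the 10 genes, and for 10.1% of all genes.

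The remaining intervals were wide. On the log2 scale, *Eln* differed by -1.43 between the surgical groups (95% interval -2.89 to 0.03 by edgeR), *Mfap5* by -0.74 (-1.52 to 0.03) and *Mfap2* by -0.53 (-1.23 to 0.16). *Fbn1* and *Mfap4* differed by -0.47 each, with intervals from -1.39 to 0.45 and from -1.20 to 0.26. *Fbn2* and *Emilin1* pointed the other way, at 0.49 (-0.78 to 1.77) and 0.25 (-0.26 to 0.76). *Fbln5* had the narrowest interval, -0.07 (-0.44 to 0.30), which leaves out a change of more than 0.44 in either direction. Altogether 8 of the 10 values were negative and the median was -0.50, beside 0.00 over all genes. The macrophage markers, 5 in number, summed to between 1942 and 3562 CPM in SHAM and between 1262 and 1662 CPM in Laminectomy mice, and bone markers to between 1.12 and 103 CPM and between 554 and 1582 CPM. In SHAM 1, 3 of the 6 bone markers were at 0. The part of these cells in the differences was not tested.

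Other genes of the pathway were counted from lists that were chosen together with the 10 genes. Of 23 fibre assembly partners, 10 were higher and 8 lower in SHAM mice, and 9 were higher and 7 lower in Laminectomy mice. Over all genes, 50.8% and 48.6% were called in either direction. The cross-linking enzyme *Lox* rose from 233 CPM in No operation mice to 1320.1 CPM in SHAM and 1020.4 CPM in Laminectomy mice on average (log2 fold changes 2.5 and 2.13, adjusted p = 0.00137 and 0.00368 by edgeR). Its relative *Loxl1* rose from 70.8 to 288 and 208 CPM (2.02 and 1.56), and *Efemp2*, fibulin 4, which brings lysyl oxidase to elastin, from 34.8 to 180.4 and 122 CPM (2.37 and 1.82). *Fkbp10*, a chaperone that folds tropoelastin and collagen, rose from 68.7 to 284 and 310.1 CPM (2.05 and 2.17). Without No operation 1, the values of *Lox* were 3.29 and 2.92.

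Of the lysyl oxidase genes, *Loxl4* was not called (-0.11 in SHAM and 0.01 in Laminectomy mice, adjusted p = 0.729 and 0.963 by edgeR) and was named here after its values were seen. *Ltbp4*, which binds latent TGF-beta and guides elastin onto microfibrils, fell from 556 CPM to 102 and 111 CPM (log2 fold changes -2.44 and -2.33, adjusted p = 3.65e-05 and 6.22e-05 by edgeR). *Mmrn1*, a multimerin of platelets and endothelium, fell from 45.0 to 7.82 and 11.1 CPM (-2.53 and -2.02). For *Lox*, *Loxl1*, *Efemp2*, *Fkbp10*, *Ltbp4* and *Mmrn1* the operated mice did not overlap the No operation mice. Some of these were named for the size of their called change, which favours lack of overlap. In the list 14 of 23 genes showed no overlap in SHAM and 16 in Laminectomy mice, beside 54.5% and 56.0% of all genes. The median log2 fold change of the list was -0.11 in SHAM and 0.01 in Laminectomy mice.

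**Figure D5:**
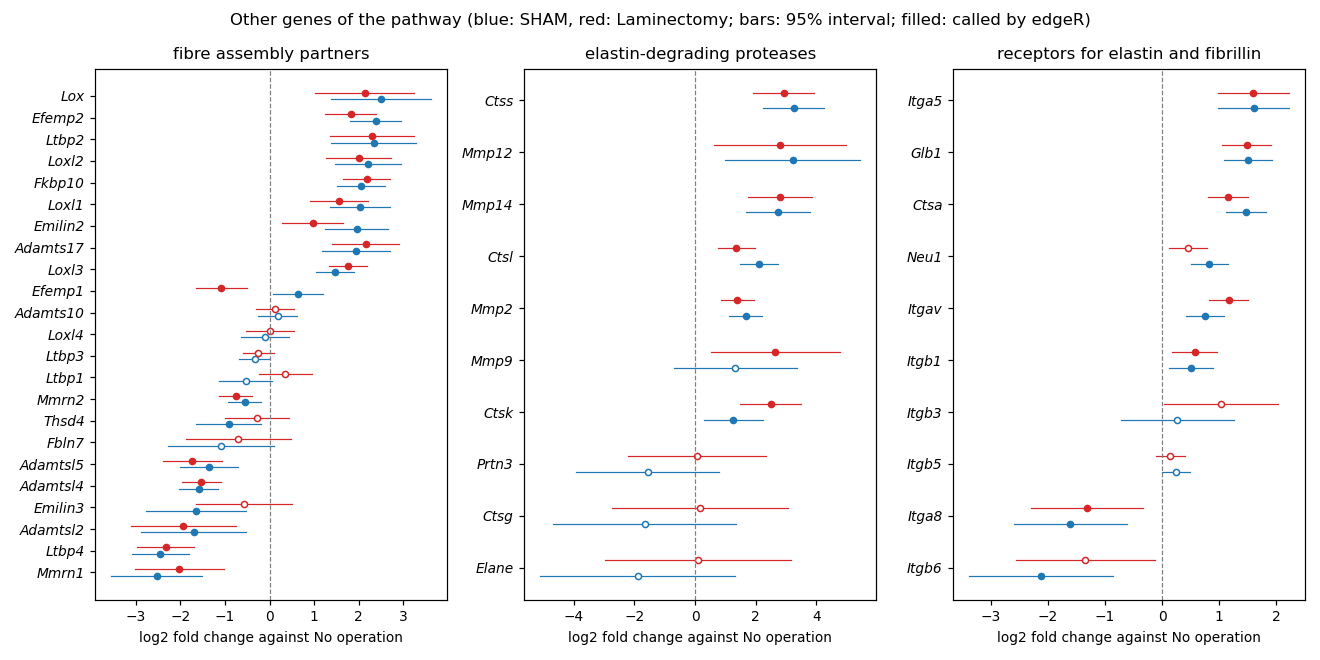
Log2 fold change against No operation mice of fibre assembly partners, elastin-degrading proteases and receptors, for SHAM (blue) and Laminectomy (red) mice, with 95% intervals and filled points where edgeR called the gene. *Lox*, *Efemp2* and *Fkbp10* lie between 1.82 and 2.5 and *Ltbp4* lies at -2.44 and -2.33.

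Of 11 proteases that can cleave elastin, 10 were tested and *Mmp7* was not, for low counts. In SHAM mice 6 were higher and none lower, and in Laminectomy mice 7 were higher and none lower, beside 25.7% and 24.2% of all genes called higher. Log2 fold changes were negative for 3 of the 10 in SHAM mice and for 0 in Laminectomy mice. These 3, *Elane*, *Ctsg* and *Prtn3*, were not called and were named after their values were seen. Their means were 33.9, 11.0 and 26.7 CPM without operation and 9.10, 3.45 and 9.07 CPM in SHAM mice. Cathepsin S (*Ctss*), an elastase of macrophages, rose from 109.9 CPM to 1045 and 829 CPM (log2 fold changes 3.25 and 2.92), and *Mmp14*, a membrane-bound metalloproteinase, from 163 to 1089 and 1136 CPM (2.74 and 2.80). Macrophage elastase, *Mmp12*, rose from 27.7 to 258 and 193 CPM (3.22 and 2.80, adjusted p = 0.0165 and 0.0303 by edgeR). Its Laminectomy call was lost without No operation 3 (2.43, adjusted p = 0.0610) or Laminectomy 1 (2.10, adjusted p = 0.0925), and with only the 2 groups compared (2.80, adjusted p = 0.0528). Without No operation 1, *Mmp14* was at 3.46 and 3.52 and *Mmp12* at 3.85 and 3.43. *Mmp9*, a gelatinase, varied from 6.73 to 444 CPM among No operation mice and was called in Laminectomy mice (2.65, adjusted p = 0.0329). In SHAM mice it was at 1.33 (adjusted p = 0.229 by edgeR). The call in Laminectomy mice was lost without No operation 1, No operation 3 or Laminectomy 1 (2.29, 2.59 and 2.25, adjusted p = 0.0616, 0.0743 and 0.0791), and with only the 2 groups compared (2.65, adjusted p = 0.0674) or a replicate block (3.17, adjusted p = 0.05003). *Mmp9* in SHAM mice was called without No operation 2 (2.81, adjusted p = 0.0151), where the Laminectomy value was 4.13. No operation 2 also had the highest sum of the 5 neutrophil markers in its group, 1607 CPM beside 13.0 to 642 CPM. The part of neutrophils in these *Mmp9* values was not tested. The 5 macrophage markers rose with these genes, from sums between 377 and 910.3 CPM in No operation mice to the levels given above, and all 5 were higher in SHAM and 4 in Laminectomy mice. Their part was not tested. The list's median log2 fold change was 1.5 in SHAM and 1.94 in Laminectomy mice.

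Of 11 receptor genes for elastin and fibrillin, 10 were tested and *Itgb8* was not. The count was 6 higher and 2 lower in SHAM mice, and 5 higher and 1 lower in Laminectomy mice. That is 8 and 6 of 10 called, beside 50.8% and 48.6% of all genes, and the Laminectomy share is near the latter. *Itga5*, the fibronectin receptor subunit that also binds fibrillin, rose from 105 to 319 and 317 CPM (log2 fold changes 1.61 and 1.60), and *Glb1*, whose splice form is the elastin-binding protein, from 24.1 to 68.6 and 67.6 CPM (1.51 and 1.49). Counts per gene do not separate that splice form from the lysosomal enzyme. *Itga8* was lower, at 12.7, 4.17 and 5.13 CPM (-1.61 and -1.31, adjusted p = 0.00923 and 0.0251 by edgeR), and its Laminectomy call was lost without No operation 3 (-0.94), Laminectomy 1 (-1.04) or Laminectomy 4 (-1.25), and with library totals as scaling (-0.98). *Itgb6* fell in SHAM mice (-2.12, adjusted p = 0.00737) and was at -1.35 in Laminectomy mice (adjusted p = 0.0552 by edgeR). The Laminectomy change of *Itgb6* was called with only the 2 groups compared (adjusted p = 0.00199), with DESeq2 (0.0369), with at least 10 counts in every mouse (0.0493), with a replicate block (0.0352) and without SHAM 1 and No operation 1 together (0.00117). The median over the receptors was 0.63 in SHAM and 0.80 in Laminectomy mice.

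TGF-beta, which induces elastin and which microfibrils hold in latent form, was followed through 12 ligand, receptor and target genes. In each surgical group 4 were higher and 2 lower, so that 6 of 12 were called, a share near the 50.8% and 48.6% of all genes, with a median log2 fold change of 0.06 in SHAM and 0.31 in Laminectomy mice. *Tgfb1* rose from 41.7 CPM to 125 and 107 CPM (log2 fold changes 1.58 and 1.36, adjusted p = 0.000161 and 0.000512 by edgeR). *Tgfbr2* rose in SHAM mice by 1.03 and was at 0.31 in Laminectomy mice (adjusted p = 0.00187 and 0.245 by edgeR). It was called there without No operation 1 (0.57, adjusted p = 0.0172) and with library totals as scaling (0.64, adjusted p = 0.0184). *Tgfb3* rose in Laminectomy mice by 1.00 and was at 0.14 in SHAM mice (adjusted p = 0.0111 and 0.693). None of the 4 lists had a call between Laminectomy and SHAM mice by edgeR. There 4 of 23 assembly partners, 2 of 10 proteases, 2 of 10 receptors and 5 of 12 TGF-beta genes had an unadjusted p under 0.05. Over all genes the share was 16.0%, and apart from TGF-beta the lists were near it. DESeq2 called 3 assembly partners and 3 TGF-beta genes between these groups, and 687 of the 18598 genes it fitted.

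Within groups, after subtraction of each group's mean log2 CPM, *Fbn1* and *Fbn2* had the highest correlation of any 2 of the 10 genes over the 12 mice (Pearson r = 0.895), followed by *Mfap4* with *Mfap5* (r = 0.876). The lowest was that of *Fbln5* with *Emilin1* (r = -0.06). No operation 1 had the highest *Fbn1* and *Fbn2* of its group by a wide gap, and its part in their correlation was not tested. Among all genes with at least 10 CPM, the 3 nearest to *Emilin1* were *Plod2*, *Fkbp10* and *P3h1* (r = 0.972, 0.968 and 0.967), and those nearest to *Fbn2* were *Col5a2*, *Kif26b* and *Rcn1* (r = 0.978, 0.973 and 0.971). *Eln* lay nearest to *Enc1*, *Mavs* and *Map4k5* (r = 0.965, 0.936 and 0.897). *Fbn1* lay nearest to *Adgra2* (r = 0.939), *Fbln1* to *Twsg1* (r = 0.907), *Fbln2* to *Rnft1* (r = 0.955) and *Fbln5* to *Crispld2* (r = 0.953). *Mfap2* lay nearest to *Ugcg* (r = 0.929), *Mfap4* to *Dact1* (r = 0.913) and *Mfap5* to *Heg1* (r = 0.948). Spearman's rho of these pairs was 0.636 for *Fbn1* with *Adgra2* and 0.797 for *Fbln1* with *Twsg1*, so both were less alike by rank, and 0.832 to 0.979 for the other nearest genes named here. These values describe likeness over mice that share library and depth with every gene, and they were picked as the highest of 10626 candidates.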

How the data were processed

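The authors extracted RNA from the tissue of each mouse, prepared stranded mRNA libraries and sequenced them as paired-end reads. Per the labels' processing notes, the tools were STAR 2.6.1b, featureCounts 2.0.1 and DESeq2 1.30.1 with the mouse build GRCm38. The authors deposited a table of 18996 genes by 12 mice without normalization, and its values behave like estimated counts, since 10.22% are not whole. They were rounded, which changed none by more than 0.5, and all values of the 10 genes were whole already. The table had 0 value columns of other samples. Whether counting used strand is not given in the sources used here beyond default settings.

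Genes were filtered with filterByExpr (4231 removed, 14765 kept), scaled with TMM and fitted over all 12 mice with the quasi-likelihood test of edgeR 4.0.16 in R 4.3.3, with Benjamini-Hochberg adjustment over all genes tested. The common dispersion was 0.0799. Calls needed a log2 fold change beyond 0.5 in size and an adjusted p under 0.05. DESeq2 1.42.0 was an alternative. Standard errors are the absolute log2 fold change divided by the square root of F, and intervals are at 95%. For single genes and ratios, log2 CPM (prior count 2) were also compared between mice by exact permutation, two-sided. Nothing beyond the labels says that mice of a group are independent of each other in surgery or handling, so p-values measure the spread between these mice. The scripts were tested on simulated data with known changes.

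Positions and exon lengths came from GENCODE M21 on GRCm38, to which all 10 genes matched, and upstream windows came from RefSeq. The rule for naming covered all 10 genes, *Lox*, *Loxl1*, *Efemp2*, *Ltbp4* and *Fkbp10*, up to 4 genes per list with the largest called change against No operation at 10 CPM or more, and the 3 genes most like each of the 10. A gene that the rule named is not reported here. The genes, lists and tests were chosen with earlier results of these data known. Alternatives were other scalings, filters and thresholds, fits of 2 groups, each mouse left out and a replicate block.

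Fibroblast, smooth muscle, skeletal muscle, adipocyte, macrophage and bone markers are given beside the results they touch. The 6 endothelial markers summed to between 474 and 831 CPM over all mice. The 5 neutrophil markers ranged from 13.0 to 1607 CPM in No operation mice, from 397 to 1081 CPM in SHAM mice and from 425 to 1598 CPM in Laminectomy mice. Tendon markers reached 5315 CPM in No operation mice, 548 CPM in SHAM mice and 829 CPM in Laminectomy mice, and cartilage markers 728, 145 and 1524 CPM. Neuron and glia markers stayed between 4.91 and 32.3 CPM in No operation and SHAM mice and reached 376 CPM in a Laminectomy mouse.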

Additional observations from a re-analysis of the deposited data

Results flagged for a closer look

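In each group of 4 mice, the highest or lowest mouse was marked where its gap to the next exceeded Dixon's 95% value. Among 108 groups of values examined, 9 were marked, and chance marks about 1 in 20 where values are independent and normally distributed. Neither was tested here, and the same mice recur among the marks, so that rate is only a rough guide.

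In No operation 1, *Eln* was at 407 CPM, where the other mice of its group were between 83.8 and 110.1 CPM, *Fbn2* was at 22.9 CPM beside 1.19 to 4.41 CPM, and *Loxl1* was at 133 CPM beside 43.0 to 58.1 CPM. The same mouse had the highest fibroblast marker sum of its group, 20158 CPM, and its part in these levels was not tested.

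In Laminectomy 1, *Ctss* was at 1291 CPM beside 659.5 to 685 CPM, and *Mmp12* at 415 CPM beside 91.9 to 140.3 CPM. The log2 ratio of *Eln* to *Emilin1* there was -2.07, where the other Laminectomy mice were between -0.07 and 0.09. This mouse also had the highest macrophage marker sum of its group, 1662 CPM, and its part was not tested.

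*Fbn1* was at 1088 CPM in Laminectomy 3, beside 841 to 857 CPM in the rest of its group. *Mfap5* was at 136 CPM in SHAM 4, beside 208 to 222 CPM. *Itga8* was at 7.04 CPM in SHAM 3, beside 2.75 to 3.48 CPM.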

How the results depend on the processing

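Over the alternatives run, 467 repeat values of the members' log2 fold changes kept direction and call, 24 lost the call, 11 gained it and 8 changed sign. None of these sign changes was in a comparison where the gene was called. *Fbln1* in SHAM against No operation mice went to 0.14 with library totals only, 0.27 without No operation 3 and 0.09 without SHAM 4 (-0.32 to 0.27 with 1 mouse left out). *Fbln5* in Laminectomy against SHAM mice went to 0.0060 with library totals only, 0.035 without SHAM 1, 0.033 without Laminectomy 1 (-0.16 to 0.035 with 1 mouse left out) and 0.035 without SHAM 1 and No operation 1 together, an alternative chosen after the data were seen. *Mfap5* in Laminectomy against No operation mice went to -0.064 without No operation 2 (-0.064 to 0.63). Outside the 10 genes, *Tgfb3* in SHAM mice, not called there, went to -0.032 without SHAM 3 (-0.032 to 0.41). The number of members called ranged from 6 to 8 in SHAM and from 4 to 7 in Laminectomy mice with 1 mouse left out at a time, and it was 0 between the surgical groups. Left out together, SHAM 1 and No operation 1 gave 8, 7 and 0. With only the 2 groups compared it was 6, 4 and 0, and *Eln*, *Mfap5* and *Mfap4* lost a call. Without a filter on low counts *Mfap5* lost its call, and with at least 10 counts in every mouse *Fbn1* gained one in Laminectomy mice, as it did with DESeq2 and with library totals only.

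DESeq2 called 1 member, 3 assembly partners and 3 TGF-beta genes between Laminectomy and SHAM mice, where edgeR called none, and 687 of the 18598 genes it fitted under its own filter on low counts. With a threshold of 1 on the log2 fold change, 7 members were called in SHAM mice, without *Mfap5* (0.89), and 4 in Laminectomy mice, without *Mfap4* (0.87). With it, 5 receptors and 3 TGF-beta genes were called in SHAM mice and 3 TGF-beta genes in Laminectomy mice, and the calls over all genes were 4589 and 4323 in place of 7502 and 7183. The cause of these differences was not tested, other than the threshold itself.

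The replicate numbers were not shown to pair mice across groups: deviations from the group mean correlated between -0.23 and 0.35 over the 12 pairs of the same number, 7 of them above 0.1. With the replicate block, 6 members were called in each surgical group and 0 between them. *Eln* (1.79, adjusted p = 0.0568) and *Mfap5* (0.96, adjusted p = 0.0624) were no longer called in SHAM mice, and *Fbn1* was called in Laminectomy mice (1.22, adjusted p = 0.0306 by edgeR). Among the named list genes, the block ended the call of *Mmp9* (3.17, adjusted p = 0.05003) and added that of *Itgb6* (-1.42, adjusted p = 0.0352) in Laminectomy mice, and it changed no other call of a named gene against No operation mice. The 24 ratio differences kept their direction when tested over the 4 pairs of numbers, which allow no p below 0.125, and under the other alternatives they moved by less than 1 SD of the mice.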
